A study of Mus musculus with 23 samples.

Results

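Annexins are cytosolic proteins that bind phospholipid membranes when calcium rises. Each has a conserved core that holds the calcium sites and a variable N-terminal tail that binds partners such as S100 proteins, and members of the family act in membrane repair, vesicle traffic, exocytosis and, once outside the cell, in clot lysis and inflammation. In the intestinal epithelium several members line the apical and lateral membranes, and Anxa1 is among the genes commonly used to describe the fetal-like or regenerative state of this tissue. The 10 genes followed here were chosen by name, with no threshold on a measured value, after results of these data were known, so an adjusted p speaks of each gene against its replicates and not of the family among other families. They were Anxa1, Anxa2, Anxa3, Anxa4, Anxa5, Anxa6, Anxa7, Anxa8, Anxa11 and Anxa13, out of 22350 genes counted in the RNA-seq libraries. Of the 10, 9 had counted sequences. Anxa13, which encodes a myristoylated annexin of the intestinal epithelium, is annotated as a processed transcript in GENCODE vM21, none of its transcripts was in the sequences that were counted, and it was not analysed here. The same annotation holds 12 annexin genes, and the remaining pair, Anxa9 and Anxa10, was outside the list.

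The study deleted Rptor, which encodes the Raptor subunit of the growth kinase complex mTORC1, in mouse intestinal epithelium of the C57BL/6 strain, and measured mRNA (RNA-seq, 11 libraries) and ribosome-protected fragments (Ribo-seq, 12 libraries) in 7 groups. Intestinal organoids came from WT animals with the genotype VillinCre.ERT2.RPL22.HA, in which a Cre driven by the epithelial Villin promoter turns on an HA-tagged ribosomal protein, or from Rptor fl/fl animals. The latter carry the label VillinCre.ERT2.Rptor.fl/fl, without the tag, in RNA-seq, whereas in Ribo-seq RPL22.HA is added to it. The stem cell enriched (SCe) organoids had the WT genotype and grew with 10 µM CHIR 99021, a GSK3 inhibitor that activates Wnt signalling, and 1.5 mM valproic acid, a histone deacetylase inhibitor. RNA-seq had 2 organoid lines of each genotype, each read in 2 technical libraries that were summed, and 3 SCe lines. Ribo-seq had 3 libraries labelled Rptor fl/fl, 3 SCe libraries, and small intestines of 3 WT (Lgr5Cre.ERT2.RPL22.HA) and 3 Rptor fl/fl (Lgr5Cre.ERT2.Rptor.fl/fl.RPL22.HA) adult mice, in which Cre is driven from the stem cell gene Lgr5. Every genotype carries a Cre that tamoxifen activates. The labels call the non-enriched samples untreated, while the methods of the study describe tamoxifen induction. In the RNA-seq comparison of genotypes the tag allele and the Rptor deletion go together and cannot be told apart.

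RNA-seq libraries held 23802944 to 67598878 estimated reads on genes, organoid footprint libraries 1106178 to 8257457, and mouse footprint libraries 772077 to 8238388. Rptor mRNA was at 14.8 and 15.5 CPM (counts scaled to a common library total) in the 2 Rptor fl/fl lines against 51.5 and 47.9 in WT. In the organoid Ribo-seq, Rptor footprints did not pass the test between the libraries labelled Rptor fl/fl (17.2, 18.7 and 15.9 CPM) and SCe (15.2, 41.8 and 21.0 CPM), with a log2 fold change of -0.53 and an adjusted p of 0.318, so these libraries are named by their label throughout. SCe line 1 stood apart from SCe lines 2 and 3. Its 12 enterocyte markers summed to 1290 CPM of RNA against 8811 and 9937, and its 9 stem cell markers to 2190 against 1063 and 1058. In footprints the enterocyte sum of SCe library 1 was also the lowest (2235 against 5291 and 6043 CPM), and so was its stem cell sum (1695 against 2758 and 3281). Where leaving it out changed a call or moved a called value by over 1.5 times, the value without it is given. In organoids the defining markers of other tissues were at or near 0: endothelial markers summed to at most 1.27 CPM of RNA and immune markers to at most 6.06 CPM. Stroma markers summed to 69.8 to 115 CPM of RNA in SCe organoids against 1.45 to 3.45 CPM in the other organoids. Col3a1, Lum and Col6a1 were at 0 in SCe, while the 3 stroma markers tested, Vim, Pdgfra and Col1a1, were higher there than in WT.

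The 9 measured genes lie on 7 chromosomes (GRCm38, GENCODE vM21). Anxa8 is at chr14:34085981-34100571 (plus strand), Anxa7 at chr14:20455260-20480133 (minus) and Anxa11 at chr14:25842156-25886804 (plus). Anxa1 is at chr19:20373428-20390944 (minus), Anxa2 at chr9:69453620-69491795 (plus), Anxa3 at chr5:96793339-96845966 (plus), Anxa4 at chr6:86736840-86793584 (minus), Anxa5 at chr3:36448923-36475894 (minus) and Anxa6 at chr11:54979108-55033445 (minus). RefSeq promoter windows of GRCm38.p6, which run from 250 bases before to 50 after a transcription start, matched 7 of the listed genes with 9 windows. Those of Anxa1 (chr19:20390622-20390921, minus), Anxa2 (chr9:69453433-69453732, plus) and Anxa8 (chr14:34085729-34086028, plus) are shown, because the RNA of these genes differed most clearly between organoid states or because they hold a motif that was searched. Capitals mark the TEAD motif GGAATG and the AP-1 motif TGANTCA, on either strand. Each is written 5′ to 3′ on the strand of the gene.
Anxa1: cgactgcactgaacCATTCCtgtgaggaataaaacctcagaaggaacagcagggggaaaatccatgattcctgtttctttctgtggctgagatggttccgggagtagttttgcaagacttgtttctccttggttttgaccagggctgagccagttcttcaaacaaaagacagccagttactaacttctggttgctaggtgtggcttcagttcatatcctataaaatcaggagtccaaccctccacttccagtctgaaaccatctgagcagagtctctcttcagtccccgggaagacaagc
Anxa2: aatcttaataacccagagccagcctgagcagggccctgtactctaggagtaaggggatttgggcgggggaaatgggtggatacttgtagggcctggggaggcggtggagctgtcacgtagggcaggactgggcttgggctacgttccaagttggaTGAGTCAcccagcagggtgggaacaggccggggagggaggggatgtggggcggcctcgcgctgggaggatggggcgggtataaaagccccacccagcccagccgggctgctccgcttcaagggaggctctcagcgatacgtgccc
Anxa8: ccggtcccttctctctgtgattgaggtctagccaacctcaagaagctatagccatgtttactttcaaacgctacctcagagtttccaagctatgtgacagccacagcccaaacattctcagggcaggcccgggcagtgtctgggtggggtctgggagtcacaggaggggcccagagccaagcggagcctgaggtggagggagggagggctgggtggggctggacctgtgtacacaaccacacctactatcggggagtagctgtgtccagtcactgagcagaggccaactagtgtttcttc
The TEAD letters were in 1 of the 9 windows (Anxa1), and 14.7% of all 32851 windows held them. The AP-1 letters were also in 1 of the 9 (Anxa2), and 7.81% of all windows held them. The 300-base window of Anxa8 held neither.

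In RNA-seq, levels per length (TPM, transcript abundance scaled to a common total) ordered the family in much the same way in WT and Rptor fl/fl organoids at the top and differed below. Anxa4, which binds the apical and basolateral membranes of epithelial cells, led in all 7 groups, at 907 ± 11.4 TPM (SD, n = 2 lines) in WT, 865 ± 34.3 (n = 2) in Rptor fl/fl and 588 ± 65.4 (n = 3) in SCe organoids. Anxa2, the partner of S100a10 that binds actin and plasminogen activators, came next at 742 ± 54.0, 693 ± 114 and 213 ± 19.1 TPM. Anxa11, an RNA granule and vesicle protein that binds the calcium sensor Pdcd6, followed in the order of means, but its values overlapped those of the next gene in Rptor fl/fl (Anxa3) and in SCe (Anxa1) organoids. In WT organoids Anxa7, Anxa3 and Anxa1 were at 64.9, 61.0 and 55.7 TPM, and the values of Anxa3 and Anxa1 overlapped between lines. Anxa5 was at 28.2, Anxa8 at 9.54 and Anxa6 at 4.91 TPM. In Rptor fl/fl organoids Anxa3 and Anxa1 were at 207 and 165 TPM, and Anxa7, Anxa8 and Anxa5 lay between 58.2 and 108 TPM in single lines, with overlapping neighbours. In SCe organoids Anxa6 reached 69.4 TPM, with values that overlapped those of Anxa1 and Anxa7, and Anxa8 was last at 0.335 TPM.

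**Figure D1:**
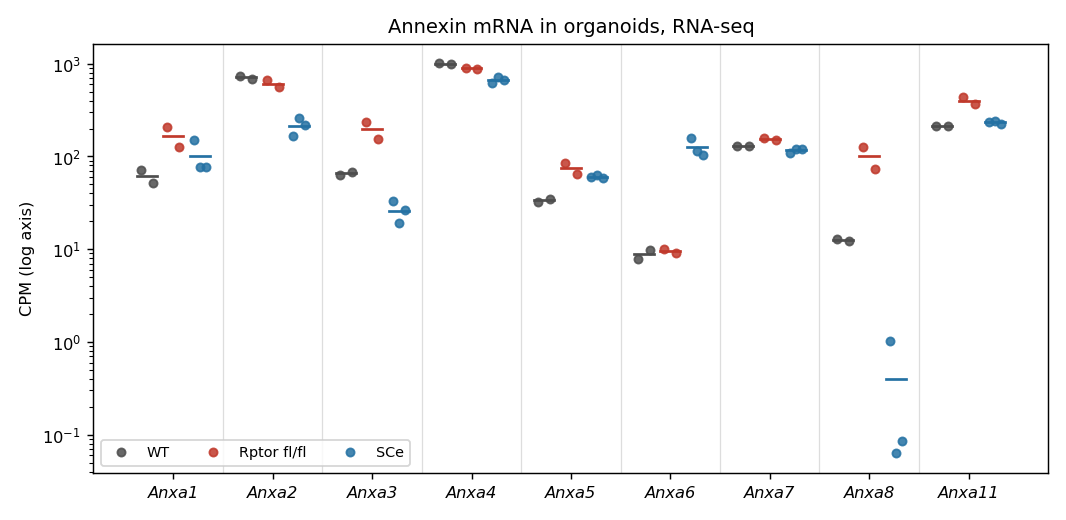
RNA-seq level of each annexin in CPM (log axis) in WT (2 lines), Rptor fl/fl (2 lines) and SCe (3 lines) organoids, with a point for each line and a bar at the group mean. Anxa8 spans 0.0628 to 127 CPM, Anxa6 is at 103 to 158 CPM in SCe and at most 10.2 CPM elsewhere, and the range of group means is smallest for Anxa7 (0.41 on the log2(CPM + 1) scale) and Anxa4 (0.57).

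The comparison of Rptor fl/fl with WT organoids asks which transcripts differ once Rptor is deleted. RNA of 6 of the 9 measured annexins was higher (Anxa1, Anxa3, Anxa5, Anxa7, Anxa8 and Anxa11) and that of none was lower, where 22.6% of 14131 genes tested were called and 11.6% were called higher (edgeR quasi-likelihood test, adjusted p under 0.05). The median log2 fold change of the 9 was 0.91, against -0.0049 over all genes tested. Markers of epithelial cell types moved in the same comparison: 6 of 7 Paneth markers were lower (median log2 fold change -2.05), 6 of 9 stem cell markers were lower (-0.79), 3 of 7 enteroendocrine markers were lower (-1.20) and 5 of 7 goblet markers were higher (1.17). Their part in the annexin values was not tested, and fewer cells of a type and less RNA per cell cannot be told apart in these bulk samples. Anxa8, an annexin of late endosomes and stratified epithelia, was at 127 and 74.1 CPM in Rptor fl/fl lines 1 and 2 and at 12.8 and 12.4 CPM in WT. Its groups were far apart, although the 2 Rptor fl/fl lines differed from each other, and the fold was 8.0 (log2 fold change 3.00 ± 0.28 SE, adjusted p = 0.0108). Anxa3, whose protein is less well characterised and sits at membranes and granules, was at 238 and 154 CPM against 63.9 and 67.9, a fold of 2.97 (adjusted p = 0.0173). Anxa1, the glucocorticoid-induced annexin that signals through formyl peptide receptors, was at 209 and 125 CPM against 72.1 and 51.5, a fold of 2.70 (adjusted p = 0.0334). Rptor fl/fl line 1 was the higher of the pair for Anxa1, Anxa3 and Anxa8 alike.

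Anxa5, the phosphatidylserine binder used to stain dying cells, was at 84.7 and 65.1 CPM in Rptor fl/fl and at 32.6 and 34.8 CPM in WT, a fold of 2.22 (adjusted p = 0.0145). Anxa11 was at 436 and 367 CPM against 216 and 212, a fold of 1.87 (adjusted p = 0.0126). Anxa7, which binds the calcium sensor sorcin, was at 159 and 151 CPM against 131 and 129, a fold of only 1.19 (adjusted p = 0.0402). The abundant pair did not pass the test. Anxa2 was at 665 and 558 CPM against 746 and 684 (log2 fold change -0.23, adjusted p = 0.212), and Anxa4 at 911 and 881 CPM against 1007 and 987 (log2 fold change -0.15, adjusted p = 0.208). Both were below WT in each line. Anxa6, the annexin with a duplicated core, was low in both genotypes at 10.2 and 9.11 CPM against 7.86 and 9.78, and the groups overlapped. Groups did not overlap for 8 of the 9 genes, where this held for 69.1% of all genes with 2 lines a group. With all 3 RNA-seq groups in 1 fit, 3 of the 9 were called, and Anxa8 (adjusted p = 0.0580), Anxa1 (0.0856) and Anxa7 (0.0858) no longer passed. The share over all genes changed with the fit too, with 939 to 7208 genes called over all alternatives. Anxa1 also missed the threshold without Rptor fl/fl line 1 (adjusted p = 0.0645) or WT line 2 (0.0852), and Anxa7 without any single line (0.050 to 0.225).

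SCe organoids were compared with WT organoids, which had the same genotype and grew without the enrichment culture. Here 2 annexins were higher (Anxa5 and Anxa6) and 4 lower (Anxa2, Anxa3, Anxa4 and Anxa8), where 42.3% of 14925 genes were called, 22.4% higher and 19.9% lower. The groups were separate for all 9, where this held for 69.1% of all genes. Goblet markers (6 of 7 lower, median -3.31) and enteroendocrine markers (6 of 7 lower, median -4.40) moved in the same comparison. Of 9 stem cell markers, 2 were higher and 2 lower (median 0.35). Their summed RNA was lower, at 1058 to 2190 CPM in SCe against 3754 and 5313 CPM in WT. The part of these markers in the annexin values was not tested. Anxa6 was at 158, 114 and 103 CPM in SCe against 7.86 and 9.78 in WT. All 3 SCe lines were far above WT, a fold of 14.4 (log2 fold change 3.85 ± 0.26 SE, adjusted p = 0.00134). The 3 stroma markers tested moved in the same direction (median 3.73), among them Vim (log2 fold change 5.23, adjusted p = 0.00157). Stroma markers summed to 69.8 to 115 CPM in SCe against 2.34 and 3.45 CPM in WT. Of the 8 stroma markers, 3 were at 0 in SCe organoids and 3 were at 0 in WT. The part of stroma in the Anxa6 value was not tested. Anxa5 was at 60.2, 62.8 and 59.2 CPM against 32.6 and 34.8, a fold of 1.83 (adjusted p = 0.00189). Anxa8 went the other way. It had 31, 4 and 5 estimated reads in the 3 SCe lines, which is 1.04, 0.0628 and 0.0860 CPM, against 12.8 and 12.4 CPM in WT (log2 fold change -5.19 ± 1.16 SE, adjusted p = 0.0213). SCe line 1 held most of the reads left, and without it the log2 fold change was -7.35 (adjusted p = 9.33e-05). The call was lost without SCe line 3 (adjusted p = 0.0616) or either WT line (0.0988 and 0.0983).

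Anxa2 was at 166, 261 and 220 CPM in SCe against 746 and 684 in WT, a log2 fold change of -1.71 ± 0.20 SE (adjusted p = 0.00398). Anxa3 was at 33.0, 19.1 and 26.3 CPM against 63.9 and 67.9 (log2 fold change -1.32, adjusted p = 0.0104). Anxa4 was at 623, 724 and 670 CPM against 1007 and 987 (log2 fold change -0.55, adjusted p = 0.0105). Each was lower than WT in every SCe line. Anxa1 did not pass the test (log2 fold change 0.75, adjusted p = 0.162). It was at 152 CPM in SCe line 1 and at 77.9 and 77.1 in lines 2 and 3, all above the 72.1 and 51.5 of WT. Anxa7 (log2 fold change -0.14) and Anxa11 (0.15) did not pass either. Leaving out either WT line ended the calls of Anxa3 (adjusted p = 0.0623 and 0.0709) and Anxa4 (0.0752 and 0.0705), and leaving out SCe line 3 also ended that of Anxa4 (0.0510).

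Rptor fl/fl organoids were next set against SCe organoids. Genotype and culture medium both differ here and cannot be told apart, and the comparison shares its libraries with the 2 before it. RNA of 6 annexins was higher in Rptor fl/fl (Anxa2, Anxa3, Anxa4, Anxa7, Anxa8 and Anxa11) and that of Anxa6 was lower, where 42.7% of 15103 genes were called, 21.0% higher and 21.8% lower. Groups did not overlap for 8 of the 9, against 68.1% of all genes. Goblet markers were higher in RNA (7 of 7, median 3.66) and in footprints (6 of 7, median 2.39). Of 9 stem cell markers, 4 were lower and 2 higher in RNA, and 6 lower and 1 higher in footprints. Their summed footprints were higher, at 5030 to 5355 CPM in libraries labelled Rptor fl/fl against 1695 to 3281 CPM in SCe, and their RNA sums overlapped. The part of these markers in the annexin values was not tested. Anxa8 showed the widest gap, 127 and 74.1 against 1.04, 0.0628 and 0.0860 CPM (log2 fold change 8.40, 95% interval 5.89 to 10.9, adjusted p = 0.00338). Without SCe line 1 it was 10.4 (adjusted p = 0.000143), resting on 4 and 5 reads in the other SCe lines. Anxa3 was 7.52-fold higher (adjusted p = 0.00239), Anxa2 2.84-fold (adjusted p = 0.00523), Anxa11 1.72-fold (adjusted p = 0.00417), Anxa7 1.34-fold (adjusted p = 0.0128) and Anxa4 1.33-fold (adjusted p = 0.0238). Anxa6 fell by 3.70 on the log2 scale (adjusted p = 0.00107). Anxa5 (log2 fold change 0.30, adjusted p = 0.106) and Anxa1 (0.71, adjusted p = 0.194) did not pass. Without SCe line 1, Anxa1 passed (log2 fold change 1.11, adjusted p = 0.00981), and 7 annexins were higher and 1 lower. Over all alternatives 2509 to 9101 of all genes were called in this comparison. Leaving out either Rptor fl/fl line ended the calls of Anxa4 (adjusted p = 0.119 and 0.0992) and Anxa7 (0.0910 and 0.0665), leaving out SCe line 3 ended that of Anxa4 (0.0997), and Anxa5 passed without Rptor fl/fl line 2 (0.0456).

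Footprints were compared between the organoid libraries labelled Rptor fl/fl and SCe. They show the mRNA on tagged ribosomes, and genotype and medium again differ together. Of the 9 annexins, 3 were higher (Anxa2, Anxa4 and Anxa8) and 2 lower (Anxa5 and Anxa6), where 16.5% of 10817 genes were called, 6.63% higher and 9.84% lower. Groups did not overlap for 7 of the 9, against 39.3% of all genes. Anxa6 was at 32.3, 20.8 and 22.5 CPM in the libraries labelled Rptor fl/fl and at 251, 260 and 233 CPM in SCe. The groups lay apart by an order of magnitude, a log2 fold change of -3.30 ± 0.21 SE (adjusted p = 0.000192). With 1 transcript per gene it did not pass (-4.53, adjusted p = 0.234). That setting keeps the reads of 1 transcript only, and its share of Anxa6 footprints ran from 0% to 100% between libraries labelled Rptor fl/fl. Stroma markers summed to 143 to 809 CPM in the SCe footprint libraries and 5.71 to 11.1 CPM in the others, with Vim, the only one of them tested, at a log2 fold change of -6.11 (adjusted p = 0.00149), and their part in the Anxa6 value was not tested. Anxa2 was at 850, 899 and 899 CPM against 395, 329 and 388, a fold of 2.38 (adjusted p = 0.0025). Anxa4 was at 1826, 1826 and 1816 CPM against 1051, 1190 and 1150, a fold of 1.61 (adjusted p = 0.0212). Anxa5 was at 84.6, 61.3 and 66.6 CPM against 167, 123 and 128, so that every library labelled Rptor fl/fl was below every SCe library (log2 fold change -0.98 ± 0.20 SE, adjusted p = 0.0121).

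Anxa8 had few footprints in any library. Libraries labelled Rptor fl/fl had 19, 23 and 46 (3.15 to 5.59 CPM) and 2, 0 and 0 in SCe, all at or under the floor of 3 counts a library. Against that floor its mean was at least 2.54-fold higher, a ratio that was not tested. The edgeR test on the counts themselves gave a log2 fold change of 3.74 (adjusted p = 0.0307). That call was lost without any library labelled Rptor fl/fl (adjusted p = 0.0758 to 0.138) or without SCe library 2 or 3 (0.0781 and 0.0728). Anxa8 passed without SCe library 1, which held the only SCe footprints (log2 fold change 7.45, adjusted p = 0.00998). That value rests on 0 footprints in the other SCe libraries. Anxa3 depended on SCe library 1. It was at 65.7, 65.3 and 59.7 CPM in the libraries labelled Rptor fl/fl and at 72.0, 7.68 and 5.77 CPM in SCe, so the groups overlapped and the test was not passed (2.27-fold, adjusted p = 0.315). Without SCe library 1 the log2 fold change was 3.33 (adjusted p = 6.8e-05). Anxa1 was at 117, 115 and 117 CPM against 337, 150 and 168, lower than SCe in each library but short of the threshold (log2 fold change -0.91, adjusted p = 0.0663). It passed when any one SCe library was left out (adjusted p = 0.0251 to 0.0466). Without SCe library 1, 4 annexins were higher and 3 lower. Over all alternatives 508 to 2682 of all genes were called in this comparison. Anxa4 and Anxa5 lost their calls with other libraries left out: Anxa4 without any library labelled Rptor fl/fl (adjusted p = 0.0941 to 0.113), and Anxa5 without those numbered 2 or 3 (0.0741 and 0.0776). Anxa7 (164, 177 and 165 against 145, 133 and 209 CPM) and Anxa11 (417, 422 and 402 against 340, 353 and 376 CPM) did not pass.

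**Figure D2:**
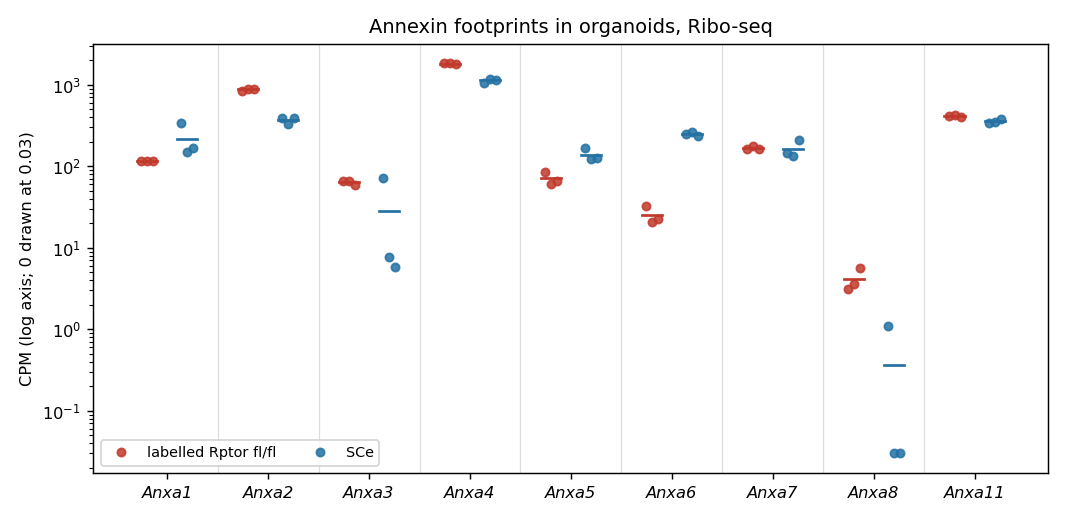
Footprint level of each annexin in CPM (log axis) in the 3 organoid libraries labelled Rptor fl/fl and the 3 SCe libraries, with a point for each library and a bar at the group mean; values of 0 are drawn at the lower edge. SCe library 1 is the highest SCe point for Anxa1 (337 CPM) and Anxa3 (72.0 CPM), and Anxa6 is at 233 to 260 CPM in SCe against 20.8 to 32.3 CPM.

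Translation efficiency was tested as the change in footprints beyond the change in RNA between Rptor fl/fl and SCe organoids, in 1 model over both assays. Only Anxa5 of the 9 annexins passed, and it was lower, where 2.93% of 10747 genes were called, 1.12% higher and 1.81% lower. Its RNA was somewhat above SCe in Rptor fl/fl lines (84.7 and 65.1 against 59.2 to 62.8 CPM) while its footprints were below SCe (61.3 to 84.6 against 123 to 167 CPM), which gave a log2 difference of -1.22 ± 0.25 SE (95% interval -1.77 to -0.68, adjusted p = 0.0314). The call was lost when any of 6 of the 11 libraries or lines was left out (Rptor fl/fl RNA line 1 or 2, SCe RNA line 2 or 3, or library 2 or 3 labelled Rptor fl/fl, adjusted p = 0.0616 to 0.174). Marker sums differed between the assays. In Rptor fl/fl samples stem cell markers summed to 981 and 2205 CPM in the RNA-seq lines and 5030 to 5355 CPM in the footprint libraries. Paneth markers summed to 883 and 1849 against 6222 to 9301 CPM. In SCe samples stem cell markers summed to 1058 to 2190 CPM in RNA and 1695 to 3281 CPM in footprints. Paneth markers summed to 1219 to 4222 and 3494 to 6100 CPM there. The assays were normalised apart, and the Paneth sum covered 7 genes in RNA and 6 in footprints. Such sums therefore do not compare the samples alone. The same term for Rptor itself was 1.43 (adjusted p = 0.0774). The part of these differences in the annexin values was not tested. Point estimates were negative for 7 of the 9, with a median of -0.51 against -0.031 over all genes. Of the 7, Anxa3 (-1.66, adjusted p = 0.361) and Anxa8 turned positive without SCe footprint library 1 (0.47 and 1.60). Anxa1 had -1.57 ± 0.51 (adjusted p = 0.118) and Anxa11 -0.51 ± 0.17 (adjusted p = 0.137). Deviations of SCe number 1 went together across the assays, while numbers 2 and 3 could not be told apart by theirs. The SCe number was also used as a block. Anxa1 then passed (-1.54, adjusted p = 0.0127) and 2 annexins were called lower, where 506 of all genes were called against 315 in the main fit. Anxa1 also passed without SCe RNA line 1 (-1.95, adjusted p = 0.0321). Anxa11 passed without SCe footprint library 1 (-0.55, adjusted p = 0.0451). Anxa2 (-0.20, 95% interval -0.78 to 0.39), Anxa4 (0.33, -0.10 to 0.76), Anxa6 (0.45, -0.18 to 1.08) and Anxa7 (-0.32, -0.85 to 0.21) did not pass, and the interval of Anxa8 ran from -11.7 to 3.00.

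**Figure D3:**
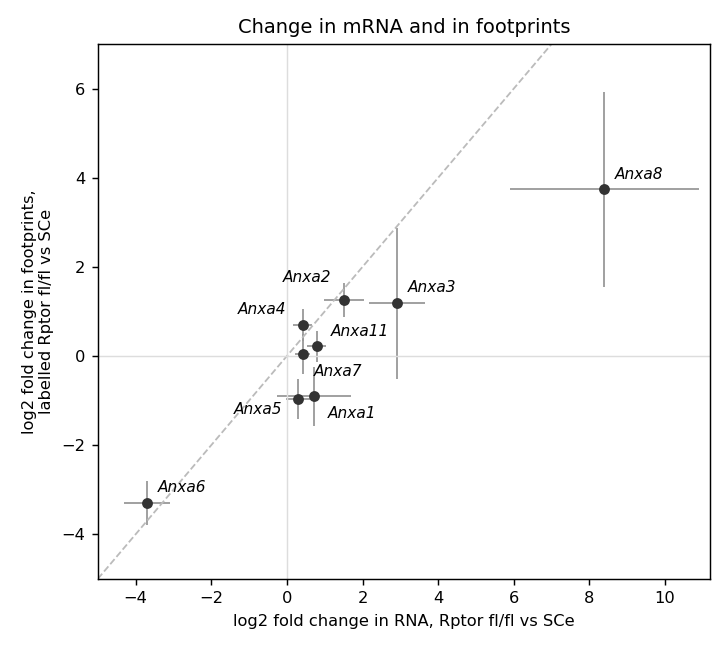
Log2 fold change of each annexin in footprints (libraries labelled Rptor fl/fl against SCe, vertical axis) against that in RNA (Rptor fl/fl against SCe organoids, horizontal axis), with 95% intervals; the dashed line marks equal change. Anxa6 lies near the line at -3.70 and -3.30, Anxa5 and Anxa1 are above 0 in RNA and below 0 in footprints, and the interval of Anxa8 is wide on both axes.

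The ratio of footprints to mRNA within a state, as TPM relative to the median gene, is a description, since the assays were normalised apart. In SCe organoids 8 annexins had at least 10 reads on average in both assays, and the mean ratios of all 8 lay above the median of 10027 genes. In single SCe libraries the lowest ratio was below that median for 6 of the 8 (all but Anxa1 and Anxa5), and with reads per kilobase of counted sequence for Anxa3 alone. The ratio of Anxa5 was highest apart from Anxa3, at 0.90 on the log2 scale (percentile 77.1). In Rptor fl/fl organoids 4 of the 9 lay above the median of 10630 genes (5 with reads per kilobase, by which Anxa3 was below it), with Anxa4 at 0.82 (percentile 73.5) and Anxa1 at -0.91 (percentile 25.8). Anxa8 lay at -4.58, and only 30 of the 10630 genes had a lower ratio (23 with reads per kilobase of counted sequence). Its mRNA was at 74.1 to 127 CPM in the RNA-seq lines, while its footprints were at 3.15 to 5.59 CPM. The RNA-seq and Ribo-seq libraries of this state came from different genotypes by label, and the Ribo-seq libraries did not pass the test for lower Rptor, so a difference between cultures and a difference in translation cannot be told apart here. The TPM ratio of Anxa3 (3.04 in SCe and 2.09 in Rptor fl/fl) rested on 1 short transcript of 145 counted bases, which took up to 14.2% of its footprint reads in either group. With reads per kilobase of counted sequence it was 0.64 and -0.88.

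Isoforms could be followed in RNA for Anxa6, which had 2 counted transcripts that differ by a short coding exon. This exon 21 of the longer transcript is at chr11:54987051-54987068 on the minus strand (GRCm38) and is shown because it is the whole coding difference between them.
Anxa6 exon 21: gtggctgctgagatcttg
The longer transcript took 32.2% and 44.9% of Anxa6 RNA reads in the 2 WT lines, and 33.4% to 40.5% in the 3 SCe lines. Its shares were lower in Rptor fl/fl, at 7.60% and 28.3%, from only 525 and 521 Anxa6 reads a line, and this was not tested. Footprints are short and cover those 18 bases rarely, and their split between the 2 transcripts ran from 0% to 100% between libraries labelled Rptor fl/fl, so only the sum over the gene was used. Anxa2, Anxa5, Anxa8 and Anxa11 each had 1 transcript that took at least 98.87% of RNA reads in WT lines. Anxa4 was split mainly between transcripts with 64.4% to 71.2% and 20.8% to 23.1% of its reads in WT lines, and these shares were 66.6% to 70.1% and 18.8% to 20.0% in Rptor fl/fl lines.

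In mice, Rptor was deleted from Lgr5-expressing cells and their tagged ribosomes were pulled down from small intestine. Footprints of 3 annexins were higher in Rptor fl/fl mice (Anxa1, Anxa2 and Anxa5) and of none lower, where 13.4% of 11515 genes were called, 7.48% higher and 5.97% lower. The median over the 9 was 0.23, against -0.015 over all genes. Anxa1 was at 40.7, 49.7 and 49.8 CPM in Rptor fl/fl mice and at 34.0, 27.3 and 28.2 CPM in WT, with no overlap, a fold of 1.64 (log2 fold change 0.71 ± 0.14 SE, adjusted p = 0.00259). The call was lost with 1 transcript per gene (0.58, adjusted p = 0.145). Anxa5 was at 72.1, 77.0 and 79.2 CPM against 59.1, 60.9 and 59.6, a fold of 1.27 (adjusted p = 0.0261). Anxa2 was at 1428, 1588 and 1634 CPM against 1281, 1346 and 1289, a fold of 1.19 (adjusted p = 0.0298). Both were above WT in every mouse, by less than Anxa1. Anxa2 lost its call without any WT mouse or without Rptor fl/fl mouse 2 or 3 (adjusted p = 0.0710 to 0.133), and Anxa5 without WT mouse 2 or 3 or Rptor fl/fl mouse 2 or 3 (0.0722 to 0.124) and with DESeq2 (0.113). With 1 transcript per gene neither passed (0.133 and 0.103).

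Groups also did not overlap for Anxa4 (1297, 1343 and 1470 against 1164, 1257 and 1136 CPM, adjusted p = 0.0694), Anxa8 (5.57, 6.97 and 6.92 against 5.03, 3.64 and 3.27 CPM, adjusted p = 0.0720) and Anxa11 (226, 234 and 233 against 211, 207 and 182 CPM, adjusted p = 0.0811), which makes 6 of 9 where 31.1% of all genes did so. Anxa8 rested on 4 to 55 footprints a mouse. Without Rptor fl/fl mouse 1, Anxa4 and Anxa11 passed (adjusted p = 0.0106 and 0.0408). That mouse stood apart from the other Rptor fl/fl mice in stem cell markers (558 against 392.5 and 363.8 CPM) and Paneth markers (8442 against 5102 and 4919 CPM). Anxa3, Anxa6 and Anxa7 overlapped between genotypes, with 95% intervals of -0.24 to 0.58, -0.13 to 0.29 and -0.41 to 0.02 on the log2 scale. Anxa6 was at 71.7 to 85.6 CPM over all 6 mice. Rptor footprints were at 32.5, 34.2 and 36.7 CPM in Rptor fl/fl mice against 41.5, 39.5 and 44.5, lower in every mouse but short of the threshold (log2 fold change -0.28, adjusted p = 0.150).

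Markers of other cells were measured in the same mouse pulldowns, and many moved with the genotype. Enterocyte markers summed to 79955 to 83728 CPM in Rptor fl/fl mice and 70301 to 71920 CPM in WT (4 of 12 higher and 2 lower), goblet markers to 29785 to 33325 against 25148 to 25430 CPM (4 of 7 higher), and Paneth markers to 4919 to 8442 against 8696 to 9545 CPM (3 of 6 tested lower). Stroma markers summed to 1462 to 1718 CPM in Rptor fl/fl mice and 1192 to 1249 CPM in WT, and 6 of the 8 were higher, among them Col3a1 (log2 fold change 0.49, adjusted p = 0.00106), Dcn (0.47, adjusted p = 0.00154) and Col1a1 (0.58, adjusted p = 0.00496). Immune markers summed to 426 to 462 against 355 to 384 CPM, with 3 of 8 tested higher, and endothelial markers to 79.4 to 85.8 against 52.7 to 66.9 CPM, with 2 of 5 higher. No marker of these 3 lists was at 0 in either genotype. Smooth muscle markers summed to 1373 to 1577 against 1487 to 1619 CPM. Anxa1, Anxa2, Anxa5 and Anxa6 are also made by such cells, and the part of all these cells in the annexin values was not tested. Stem cell markers summed to 364 to 558 CPM in Rptor fl/fl mice against 574 to 603 CPM in WT, and 2 of 8 tested were lower.

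**Figure D4:**
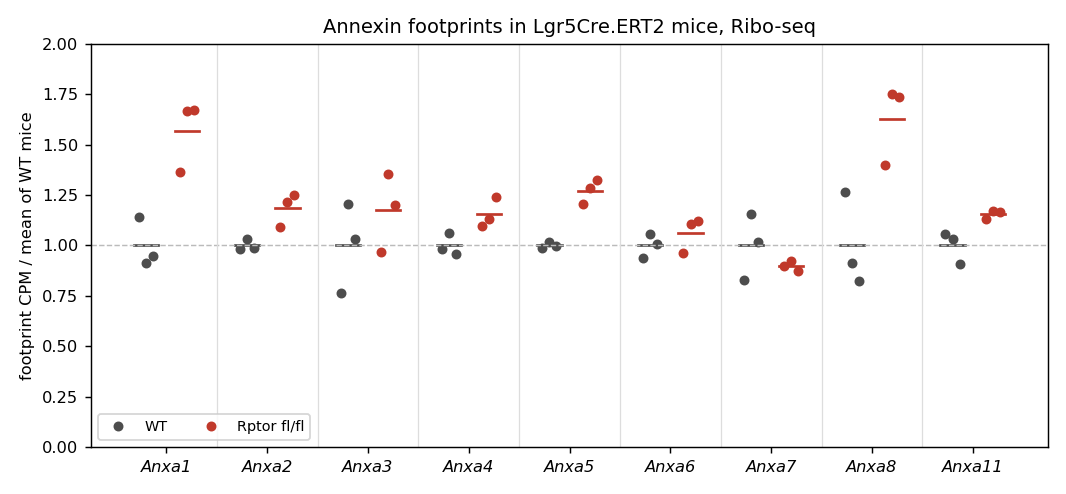
Footprint level of each annexin in 3 WT and 3 Rptor fl/fl mice, as CPM divided by the mean of the WT mice (linear axis from 0), with a point for each mouse and a bar at the group mean. All 3 Rptor fl/fl mice are above all 3 WT mice for Anxa1, Anxa2, Anxa4, Anxa5, Anxa8 and Anxa11, and of these Anxa1, Anxa2 and Anxa5 passed the test.

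Genes that work with annexins were followed as a list of 16 partners: S100 proteins, calcium sensors, membrane repair proteins, formyl peptide receptors and the plasminogen system. In RNA of Rptor fl/fl against WT organoids, 3 of 11 tested were higher and 2 lower, beside 22.6% of all genes called in either direction. Among the higher ones were Plat, tissue plasminogen activator (log2 fold change 2.15, adjusted p = 0.00891), and S100a11, the partner of Anxa1 (0.78, adjusted p = 0.0165). The lower ones were Plgrkt, a plasminogen receptor (-0.81, adjusted p = 0.0111), and S100a10, the partner of Anxa2 (-0.42, adjusted p = 0.0199). S100a10 was at 129 and 118 CPM against 167 and 164. In SCe against WT organoids 1 of 11 was higher and 6 were lower, beside 22.4% and 19.9% of all genes, with Sri, the sorcin that binds Anxa7, lower by -1.49 (adjusted p = 0.00192) and S100a6 by -1.80 (adjusted p = 0.00358). In Rptor fl/fl against SCe organoids 5 of 10 were higher in RNA (21.0% of all genes), and 3 of 10 were higher and 1 lower in footprints (6.63% and 9.84% of all genes). The formyl peptide receptor genes Fpr1, Fpr2 and Fpr3 had 0 reads in all organoid libraries of both assays. In mouse footprints 4 of 12 partners were higher, beside 7.48% of all genes: Pdcd6 (0.56, adjusted p = 0.000626), S100a11 (0.60, adjusted p = 0.00232), Plat (1.03, adjusted p = 0.00583) and S100a10 (0.31, adjusted p = 0.0134).

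Of 19 plasma membrane repair genes, 6 of 18 tested were higher and 1 was lower in Rptor fl/fl against WT organoid RNA, with a median of -0.0092, beside 11.6% of all genes called higher. Among the higher ones were Smpd1, an acid sphingomyelinase (1.17, adjusted p = 0.0108), and Cav1, a caveolae gene (6.31, adjusted p = 0.0109). In mouse footprints 1 of 19 was higher, Pdcd6. The copines, another family of calcium-dependent membrane binders, were called in 1 of 7 tested in Rptor fl/fl against WT organoids (lower) and in 5 of 7 in SCe against WT organoids (4 higher and 1 lower), where 22.6% and 42.3% of all genes were called. Of 15 counted fetal-like genes other than annexins, all of them tested, 12 were higher in Rptor fl/fl against WT RNA (11.6% of all genes), with Plaur at 1.73 (adjusted p = 0.00894) and Il1rn at 1.60 (adjusted p = 0.0101). The study used several of these genes to describe this state, so their direction is not independent evidence. Against SCe, 6 of 15 were higher and 1 lower in RNA (21.0% and 21.8% of all genes). In SCe against WT RNA 4 of 14 were higher and 1 lower (median 1.45), beside 22.4% and 19.9% of all genes. Their summed RNA was lower, at 403 to 677 CPM in SCe against 704 and 706 CPM in WT. In organoid footprints 0 of 10 were higher and 2 lower (median -0.68), beside 6.63% and 9.84% of all genes. In translation efficiency 2 of 10 were lower (median -2.33), beside 1.81%, and in mouse footprints 3 of 12 were higher, beside 7.48%.

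For the 3 annexins with the widest range over RNA-seq groups, the genes whose profile over the 7 lines was most like theirs were taken among 9573 genes with a mean of at least 10 CPM. The measure was the root mean square difference between centred log2(CPM + 1) profiles. The nearest to Anxa8 were Krt4 (0.50), Tff1 (0.58) and Clca1 (0.63), to Anxa6 Slc4a8 (0.23), Lrp11 (0.25) and Nptxr (0.27), and to Anxa3 Rdh10 (0.24), Ccdc9b (0.25) and Epn3 (0.29). Krt4, a keratin of stratified epithelium, was at 87.5 and 56.2 CPM in Rptor fl/fl, 6.59 and 5.18 in WT and at most 0.430 CPM in SCe. Tff1 was at 52.0 and 114 CPM in Rptor fl/fl, 5.99 and 9.68 in WT and at most 0.702 CPM in SCe. Clca1, which is on the list of goblet markers, was at 44.2 and 71.0, 11.9 and 15.2, and at most 0.224 CPM. Anxa9 and Anxa10 were named after their values were seen. Anxa9 was low, at 1.45 to 4.78 CPM over the 7 RNA-seq lines. Anxa10 ranged from 4.37 to 192 CPM, with 145 and 192 in WT, 132 and 167 in Rptor fl/fl and 4.37 to 9.46 in SCe organoids, and had at most 1 footprint in any mouse.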

How the data were processed

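mRNA was measured by RNA-seq and ribosome-protected fragments by Ribo-seq after pulldown of HA-tagged ribosomes, in 23 libraries of 7 groups. Per the labels and the submitters' processing notes, the authors trimmed Ribo-seq reads with cutadapt 1.18 and quantified both assays with Salmon 1.1.0 (mm10, GENCODE vM21). The deposited tables give estimated counts, effective lengths and TPM for each transcript. RNA-seq was counted on protein-coding transcripts. Organoid footprints were counted on 59120 sequences, of which 48553 had the length of a coding sequence plus 46 bases, and on 44641 entries for the 5′ region. Mouse footprints were counted on 65862 sequences, of which 41982 had the length of 5′ UTR and coding sequence plus 31 bases. Effective lengths were set for long fragments, which makes footprint TPM of short sequences too high, so footprints were also scaled by counted length. A deposited table of the authors' own comparison (dispersions, p-values and fold changes of translation efficiency) was not used.

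Estimated counts were summed per gene and, for RNA-seq, over the 2 technical libraries of a line, rounded to whole numbers, and tested in R 4.3.3 with edgeR 4.0.16 (filterByExpr, TMM, quasi-likelihood test, Benjamini-Hochberg adjustment over all genes tested, threshold 0.05). For translation efficiency, 1 model held both assays and its interaction term was tested. SE is the log2 fold change over the root of F, and intervals cover 95%. CPM used TMM over all libraries of an assay. DESeq2 1.42.0 and other scalings, filters and left-out libraries were alternatives. The fit was tested on simulated counts. Deviations of same-numbered SCe RNA and footprint libraries correlated at 0.292, 0.103 and 0.211. Only number 1 was set apart by this, since footprint library 2 correlated with RNA line 3 at 0.097 and library 3 with RNA line 2 at 0.185. A pairing of numbers 2 and 3 across assays was therefore not shown.

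The 2 lines of an RNA-seq genotype and the 3 lines, libraries or mice of the other groups are the replicates. Organoid lines are not stated to come from separate animals in each case, so p-values measure the spread between these samples. Depth was 23802944 to 67598878 reads per RNA-seq library and 772077 to 8257457 per footprint library. The intervals come from the SE of the same fits as the p-values. The members, 15 gene lists and motifs were chosen with earlier results of these data known. Named genes were all listed annexins, Rptor, at most 4 genes a list with the smallest adjusted p, and the 3 nearest profiles of the 3 most variable annexins. Anxa13 was not analysed here.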

Additional observations from a re-analysis of the deposited data

Results flagged for a closer look

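Anxa5 differed between the assays: footprints minus RNA changed by -1.22 on the log2 scale between Rptor fl/fl and SCe organoids (edgeR interaction test, adjusted p = 0.0314). The footprints were lower in all 3 libraries labelled Rptor fl/fl, while the RNA was higher in both Rptor fl/fl lines.

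Footprints on the 5′ region entries, which no comparison above used, were more frequent for Anxa4 in the 3 organoid libraries labelled Rptor fl/fl. Their mean was 64.2 RPM (60.1 to 70.0, reads scaled to a common library total) against 31.01 RPM (20.6 to 41.01) in SCe. Footprints on the gene entries of Anxa4 were also higher in the libraries labelled Rptor fl/fl (1.61-fold). The 5′ entries made up 3.34% to 3.89% of the footprints of the gene, against 3.33%, 3.33% and 1.77% in SCe libraries 1, 2 and 3. Over all genes SCe library 3 had the lowest 5′ share too, at 2.97% against 6.98% and 5.42% in SCe libraries 1 and 2. That share was 3.82% to 4.25% in the libraries labelled Rptor fl/fl. The difference for Anxa4 was not tested.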

How the results depend on the processing

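Of 54 annexin results (9 genes in 6 comparisons), 47 kept their direction under every alternative run and 18 also kept their side of the threshold. Counts of annexins past the threshold moved by more than 1.5 times as follows. In RNA of Rptor fl/fl against WT, 3 were higher with all 3 groups in 1 fit, and 2 were lower with technical libraries as separate replicates. In SCe against WT, 4 were higher with technical libraries separate and 2 lower with the replicate block. In organoid footprints, 1 was higher with the replicate block and 0 lower with 1 transcript per gene. In translation efficiency, DESeq2 gave 1 higher and 3 lower, technical libraries as separate replicates 3 lower, the SCe number as block across assays (chosen after seeing the data) 2 lower, and 1 transcript per gene and the replicate block within each assay 0 lower. In mice, 1 transcript per gene gave 0 higher. Leaving out 1 line, library or mouse gave 4 to 5 higher and 0 to 0 lower in RNA of Rptor fl/fl against WT, 4 to 7 and 1 to 1 against SCe, 2 to 2 and 1 to 4 for SCe against WT, 1 to 4 and 1 to 3 in organoid footprints, 0 to 0 and 0 to 2 in translation efficiency, and 1 to 5 and 0 to 0 in mice.

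Directions that reversed, none of them past the threshold, were Anxa6 in RNA of Rptor fl/fl against WT without WT line 1 (range -0.025 to 0.29 over left-out lines), Anxa7 in organoid footprints without SCe library 1 or 2 (-0.051 and -0.072, up to 0.29 without others), Anxa3 and Anxa8 in translation efficiency without SCe footprint library 1 (ranges -2.28 to 0.47 and -6.34 to 1.60), and, with 1 transcript per gene, Anxa6 in translation efficiency (-1.18) and in mice (-0.20) and Anxa8 in mice (-0.32). The replicate number showed no pairing in footprints: deviations of same-numbered libraries correlated at -0.044 to 0.029 between organoid groups and -0.006 to 0.034 between mice. In RNA-seq, same-numbered Rptor fl/fl and WT lines correlated at 0.25, and with only 2 pairs of lines a pairing could not be decided. Calls over all genes under the replicate block were 4751 against 3195 in RNA of Rptor fl/fl against WT, 3413 against 6452 against SCe, 3154 against 6309 for SCe against WT, 1229 against 1781 in organoid footprints, 4 against 315 in translation efficiency (506 with the SCe number as block across assays) and 1304 against 1548 in mice. With 1 transcript per gene 508, 186 and 346 genes were called in the footprint, translation efficiency and mouse comparisons. Over all alternatives the genes called ran from 939 to 7208 in RNA of Rptor fl/fl against WT, 2509 to 9101 against SCe, 2027 to 9530 for SCe against WT, 508 to 2682 in organoid footprints, 4 to 1333 in translation efficiency and 346 to 1954 in mice. The causes of these shifts were not tested. Depth limits Anxa8, with at most 55 footprints in any library.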
